A study of Rattus norvegicus with 40 samples.

Results

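miR-128 is a microRNA enriched in neurons of the brain, where it holds down messenger RNAs of ion channels and of kinase signalling and is known as a regulator of neuronal excitability and motor activity. A microRNA is cut from a hairpin precursor, and either arm of the hairpin can be kept as the mature strand. The mature strand pairs with target messenger RNAs mainly through its seed, bases 2 to 8. In plasma, microRNAs are carried in vesicles and protein complexes released by many tissues and blood cells. The rule took every row of the read count table whose name starts with rno-miR-128-, and it found 3 of 752 rows: rno-miR-128-3p, rno-miR-128-1-5p and rno-miR-128-2-5p. Attention to miR-128-3p was chosen by its rank in the comparison of TBI+ with TBI− on D2, so that comparison is only described below and was not tested. Other comparisons that hold D2 libraries of injured rats share those values, so for miR-128-3p they are descriptions too, given without a p.

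The libraries came from plasma of 20 adult male Sprague-Dawley rats, drawn from the tail vein into EDTA tubes 2 days (D2) and 9 days (D9) after surgery. Of these, 4 rats had a sham operation and 16 had lateral fluid-percussion injury, a model of traumatic brain injury (TBI). Video-EEG in the sixth month after injury put 7 injured rats in the group with epilepsy (TBI+) and 9 in the group without (TBI−). Each rat gave 1 library a day. The library total, the sum of counts over all miRNAs, was 404542 to 2562083 on D2 and 140636 to 2864893 on D9. The 4 sham libraries of D9 had 140636 to 358202 counts, and the lowest injured library of that day had 332161. Levels are given as CPM, the count scaled to the library total, with SD over rats.

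The libraries fall into 3 runs by the number in their titles, A (16 libraries), B (13 libraries) and C (11 libraries), from the lowest numbers to the highest, with a different spacing of the numbers in each. The labels do not say what these numbers record. The runs were spread unevenly over the groups. On D2 all 4 sham libraries were in run A, TBI+ had 4 libraries in A and 3 in B, and TBI− had 6 in B and 3 in C. On D9 all 4 sham libraries were in run C, TBI+ had 4 in C and 3 in A, and TBI− had 5 in A and 4 in B. Values within runs are therefore given beside the pooled ones.

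A pair of D9 libraries with adjacent numbers and opposite outcome labels, TBI+ rat 5 and TBI− rat 1, were nearly alike. Over 293 miRNAs the chi-square per degree of freedom between their counts was 1.82, and the lowest value among the other 779 pairs of libraries was 46.2. Their counts were not identical, and both were kept as labelled. Group comparisons of miR-128-3p on D9 and its changes between days are also given without this pair, an alternative chosen after seeing the data. Group means, values within run A on D9 and correlations are given with it.

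The mature 3p strand has the same sequence from both rat genes, so its counts cannot be divided between them. The genes lie in GRCr8 within the bounds of protein-coding genes on the same strand: Mir128-1 in R3hdm1 on chromosome 13 and Mir128-2 in Arpp21 on chromosome 8. The mature strand is at chr13:42251933-42251953 (+) and chr8:120963807-120963827 (−). All 3 members matched the RefSeq miRNA table. The 3 mature strands are shown because the arms differ in plasma level by over 3 orders of magnitude, with the seed in capitals.
miR-128-3p: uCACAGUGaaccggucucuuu
miR-128-1-5p: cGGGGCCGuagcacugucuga
miR-128-2-5p: gGGGGCCGaugcacuguaaga

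The 5p strands share a seed with each other and not with the 3p strand. Counted from the 5′ end, from miR-128-1-5p to miR-128-2-5p, they differ by C1G, U9A, A10U, C18A and U19A. The hairpins are shown with both mature arms in capitals, to place the arms and to show where the genes differ outside the shared 3p strand.
Mir128-1: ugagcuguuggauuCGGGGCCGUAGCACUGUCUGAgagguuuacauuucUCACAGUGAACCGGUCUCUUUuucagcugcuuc
Mir128-2: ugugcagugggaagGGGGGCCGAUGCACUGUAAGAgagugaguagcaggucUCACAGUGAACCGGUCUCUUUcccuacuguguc
The precursor of Mir128-1 is 82 bases long and that of Mir128-2 is 84 bases long. How reads that fit both genes were counted is not given in the sources used here.

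Nearly all miR-128 reads came from the 3p strand. It had 305534 reads over the 40 libraries. There were 1707 reads of miR-128-3p for each read of miR-128-1-5p and 7105 for each of the 43 reads of miR-128-2-5p. miR-128-3p had 281 to 19949 reads in a library and ranked between place 19 and place 44 among all miRNAs of a library. Its counts were even in 18 of 40 libraries, so they were not whole multiples of the 2 gene copies.

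miR-128-1-5p was read in 34 of 40 libraries, with 0 to 15 reads in each. It had over 3 reads, the floor used here for a count of 0, in 22 libraries by its total and 3 or fewer in 18. miR-128-2-5p was read in 15 libraries, with at most 9 reads, and 34 libraries held 3 or fewer. The 4 sham libraries of D9 held 0 reads of it, which allows up to 21.3 CPM in the shallowest. With the libraries of a group pooled, miR-128-1-5p was at 2.56 CPM in sham, 2.72 CPM in TBI+ and 5.29 CPM in TBI− on D2. On D9 it was at 6.95, 2.84 and 4.43 CPM, where the sham value rests on 6 reads. In the same order, miR-128-2-5p was at 2.82, 0.42 and 0.71 CPM on D2, from 11, 4 and 8 reads. On D9 that arm was at 0, 0.95 and 1.00 CPM, from 0, 8 and 12 reads. The edgeR fits held the 5p arms among all miRNAs, and neither arm passed the threshold in any of the 12 comparisons. At these depths no difference between groups could be read from them.

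miR-128-3p was highest in TBI+ on D2 and lowest in sham on D9. The 6 group means were 9418 ± 3180 CPM in TBI+ on D2 (n = 7), 6360 ± 2486 CPM in TBI− on D9 (n = 9), 6305 ± 1586 CPM in sham on D2 (n = 4), 5891 ± 3490 CPM in TBI+ on D9 (n = 7), 5518 ± 1386 CPM in TBI− on D2 (n = 9) and 2652 ± 948 CPM in sham on D9 (n = 4). Neighbours from the second to the fifth place in this order lay within 1 SD of each other. The range over all 40 libraries was 1737 to 15111 CPM, a ratio of 8.70. The plasma level does not show from which cells the RNA came, and more cells releasing it and more RNA released by each cell cannot be told apart.

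**Figure D1:**
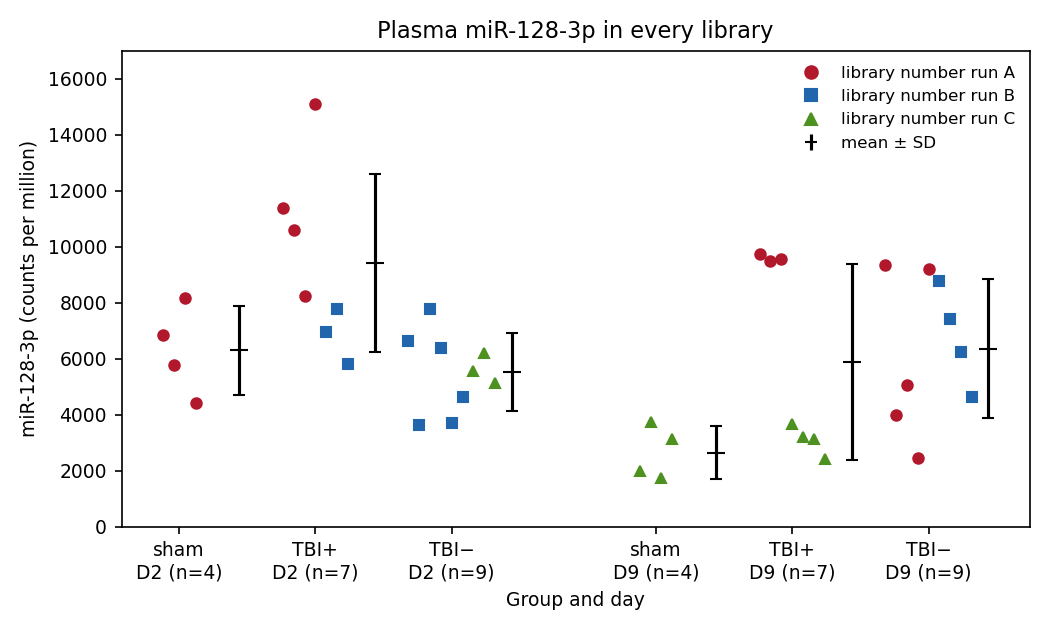
miR-128-3p in CPM of the library total (vertical axis) for each of 40 libraries by group and day, with symbols for the run of library numbers and mean ± SD beside each group. The 3 run A libraries of TBI+ on D9 lie between 9503 and 9726 CPM, and the 4 run C libraries of that group lie between 2417 and 3678 CPM.

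On D2, the question was whether injury changed the plasma level. Sham rats had 6853, 5764, 8165 and 4436.5 CPM. TBI+ rats ranged from 5813 to 15111 CPM with a median of 8260 CPM, and TBI− rats from 3632 to 7784 CPM with a median of 5561 CPM. The groups overlapped: 4 of 7 TBI+ rats lay above every sham rat, 2 of 9 TBI− rats lay below every sham rat and no TBI− rat lay above all of them. All injured rats against sham gave a log2 fold change of 0.29 (SE 0.25) in a fit that called 6.19% of 565 miRNAs. TBI− against sham gave −0.06 (SE 0.22) in a fit that called 6.19%. TBI− and sham shared no run on D2, so the run as a term links them only through the TBI+ libraries of runs A and B. With the run as a term TBI− against sham was 0.53 (SE 0.37), and 2 miRNAs were called in place of 35. Injured against sham was then 0.88 (SE 0.25), a value that rests on the TBI+ rats of run A.

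TBI+ against sham on D2 gave 0.64 (SE 0.24) in edgeR, which called 3.19% of all miRNAs, with 4 of 7 rats above all sham rats. DESeq2 gave 0.72 (SE 0.24) and called 6.02%. Within run A, the TBI+ libraries had 11399, 10585, 8260 and 15111 CPM, and each lay above all 4 sham libraries. The lowest of them was 8260 CPM and the highest sham library 8165 CPM. Of 524 miRNAs, 8.4% did not overlap between these groups of 4. There the log2 fold change was 0.87 (SE 0.25), in a fit that called 4.58%, and with the run as a term, added after seeing the data, it was 0.88. Over 21 alternatives it was 0.49 to 0.88. These TBI+ libraries are the ones by which miR-128-3p was chosen, so no call is made.

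TBI+ against TBI− on D2 is the comparison in which miR-128-3p was singled out, so the values are a description. The edgeR log2 difference was 0.70 (SE 0.19), and 5 of 7 TBI+ rats lay above all 9 TBI− rats. In that comparison 0% of 565 miRNAs were called by edgeR, 38 had an unadjusted p under 0.05 and DESeq2 called 0. The difference was not even over the runs. Run B held TBI+ rats 5, 6 and 7, with 6968, 7789 and 5813 CPM, and 6 TBI− rats with 5455 ± 1715 CPM. Within run B the log2 difference was 0.38 (SE 0.25), and with the run as a term it was 0.35 (SE 0.25). Over 27 alternatives it was 0.35 to 0.81.

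Within TBI+ on D2, the 4 rats of run A had 11339 ± 2845 CPM and the 3 rats of run B 6857 ± 993 CPM, without overlap, which held for 4.02% of 522 miRNAs. The log2 difference was 0.65 (SE 0.29), and edgeR called 0.766% of miRNAs between these libraries. That share is 4 miRNAs, with 0 without TBI+ rat 6 and 14 without TBI+ rat 1. This split was compared after its values were seen, so no p is given for miR-128-3p. The runs also hold different rats, so the rat and the run cannot be told apart.

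On D9, sham rats had 1998, 3750, 1737 and 3124 CPM. TBI+ rats ranged from 2417 to 9726 CPM with a median of 3678 CPM, and TBI− rats from 2473 to 9359 CPM with a median of 6250 CPM. Of the 16 injured rats 11 lay above every sham rat, and none lay below all of them. The injured rats were higher on average, and none of the 3 edgeR tests against sham passed the 0.05 threshold. All injured rats against sham gave a log2 fold change of 1.32 (SE 0.39), adjusted p = 0.0501 (edgeR, 3.51% of 541 miRNAs called). TBI− against sham gave 1.33 (SE 0.41), adjusted p = 0.0523 (edgeR, 4.81% called), with 8 of 9 rats above all sham rats. TBI+ against sham gave 1.31 (SE 0.42), adjusted p = 0.109 (edgeR, 1.85% called), with 3 of 7 rats above all sham rats. The number of miRNAs called rests on single libraries: it was 19 for all injured rats and 26 for TBI−, and 0 for each without sham rat 2.

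DESeq2 placed 2 of these comparisons past the threshold. It gave 1.18 (SE 0.37), adjusted p = 0.0324, for all injured rats, with 2.96% called, and 1.22 (SE 0.40), adjusted p = 0.0448, for TBI−, with 4.07% called. The adjusted p ranged from 0.0231 to 0.843 over 31 alternatives for all injured rats and from 0.0277 to 1.00 over 23 for TBI−, and for TBI+ it was 0.0594 to 1.00 over 22. Without the near-identical pair, edgeR gave 1.23, adjusted p = 0.0954, for all injured rats, 1.18, adjusted p = 0.205, for TBI+ and 1.26, adjusted p = 0.0976, for TBI−. With every library thinned to the smallest total of D9, it gave 1.14, adjusted p = 0.0742, for all injured rats.

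The D9 difference from sham was small within the run that held the sham libraries. In run C, sham had 2652 ± 948 CPM and the 4 TBI+ rats had 3678, 3208, 3134 and 2417 CPM, so that the groups overlapped. The log2 fold change there was 0.29 (SE 0.39), adjusted p = 0.789 by edgeR. No TBI− library of D9 was in run C. With the run as a term, the value was 0.32 (SE 0.36), adjusted p = 0.838, for TBI+ and −0.45 (SE 0.52), adjusted p = 1.00, for TBI−. Since all sham libraries of D9 lie in 1 run, the run and the group cannot be told apart for TBI− against sham. The value of −0.45 links these groups only through the TBI+ libraries of runs A and C.

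Within TBI+ on D9, the libraries formed separate bands by run. TBI+ rats 5, 6 and 7, in run A, had 9726, 9503 and 9573 CPM, and rats 1 to 4, in run C, had 3109 ± 521 CPM. The log2 difference was 1.70 (SE 0.24), or 1.75 (SE 0.25) without TBI+ rat 5 of the near-identical pair, and the bands did not overlap, as for 13.3% of 502 miRNAs. edgeR called 3.19% of miRNAs between these libraries, which is 16, with 7 without TBI+ rat 4 and 43 without TBI+ rat 5. This split was compared after its values were seen, so no p is given for miR-128-3p. Markers of other cells are given for the same libraries as values. In run A and run C, the sum of red cell miRNAs was 57470 ± 16261 and 35837 ± 7941 CPM, with overlap, and that of the platelet, leukocyte and endothelial list was 59487 ± 11684 and 44034 ± 1706 CPM. miR-192-5p was at 44246 ± 9520 and 87672 ± 10429 CPM. No call is made for these markers either, since the split was chosen on miR-128-3p. In the second list the log2 difference ran from −0.59 (SE 0.32) for miR-146a-5p to 1.13 (SE 0.28) for miR-126a-3p. For miR-192-5p it was −0.93 (SE 0.22). The same rats were in the opposite order on D2, when rats 1 to 4 were in run A and lay above rats 5 to 7 in run B. TBI− libraries of run A on D9 were not in that narrow band: they had 9359, 4010, 5070, 2473 and 9211 CPM.

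TBI+ against TBI− on D9 gave a log2 fold change of −0.03 (SE 0.32), adjusted p = 0.992 (edgeR, 0% called). At an unadjusted p under 0.05 there were 22 miRNAs, and DESeq2 also called 0. Within run A the value was 0.89 (SE 0.42), adjusted p = 0.548, and with the run as a term 0.77 (SE 0.37). Over 27 alternatives the adjusted p was 0.548 to 1.00. Without the near-identical pair it was −0.08, adjusted p = 0.966. Scaled to miR-28-3p it was 0.14, and it was above 0 in 7 of 16 fits with 1 rat left out. The value had no fixed direction, and none of these fits passed the threshold.

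**Figure D2:**
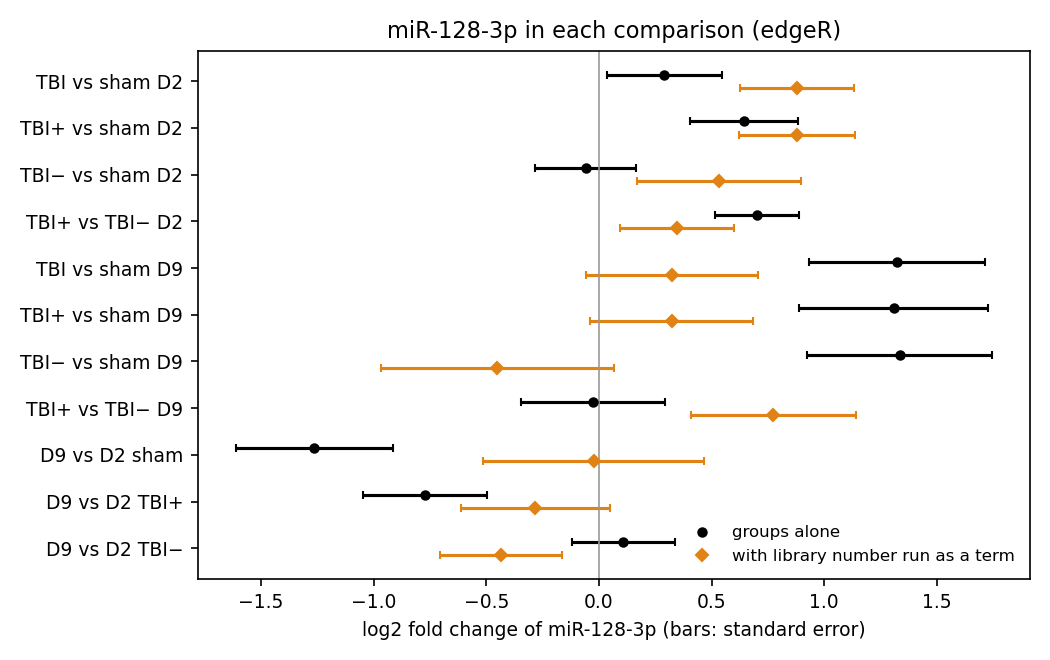
Log2 fold change of miR-128-3p (horizontal axis, bars are the standard error) in each comparison from edgeR, fitted with the groups alone (black) and with the run of library numbers as a term (orange). The D9 differences from sham of 1.31 to 1.33 become 0.32 for TBI+ and −0.45 for TBI− with the run as a term. TBI− and sham share no run on D9, so the −0.45 links them only through the TBI+ libraries of runs A and C.

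From D2 to D9, miR-128-3p fell in sham rats in edgeR with the rat as a block, and the call did not survive several alternatives. All 4 sham rats were lower on D9, by a log2 fold change of −1.26 (SE 0.35), adjusted p = 0.0168 (edgeR, 4.99% of 581 miRNAs called). The adjusted p ranged from 0.0104 to 1.00 over 14 alternatives. In TBI+ the value was −0.77 (SE 0.28), with 4 of 7 rats lower on D9, in a fit that called 13.4%. Its D2 values are those by which miR-128-3p was chosen for being high, so a lower value on D9 is partly built in. In TBI− it was 0.11 (SE 0.23), with 3 of 9 rats lower on D9, in a fit that called 17.7%. The change of injured minus sham rats from D2 to D9 was 0.99 (SE 0.39) in a fit that called 2.93%. It was 0.98 without the near-identical pair, and it turned to −0.34 (SE 0.52) with the run as a term.

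The run moved together with the day. All 4 sham rats went from run A to run C, and so did TBI+ rats 1 to 4, which were all lower on D9 by a mean log2 ratio of −1.85 ± 0.55. TBI+ rats 5 to 7 went from run B to run A and were all higher on D9, by 0.50 ± 0.22. TBI− rats 5 and 6 alone had both libraries in 1 run, B, and were higher on D9 by a mean of 0.97. A fit on these 2 rats gave 0.80 (SE 0.27) and called 18.1% of miRNAs, and over 20 alternatives the TBI− value was −0.43 to 0.80.

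With the run as a term, the change was −0.02 (SE 0.49), adjusted p = 1.00, in sham and −0.28 (SE 0.33) in TBI+. The sham call was lost without sham rat 1 or sham rat 3, where the value was as high as −0.98. With 1 rat left out at a time, the TBI+ value was −1.09 to −0.50. Without the near-identical pair the value was −1.39, adjusted p = 0.0120, in sham, −0.996 in TBI+ and 0.03 in TBI−. For sham rats the day and the run cannot be told apart.

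**Figure D3:**
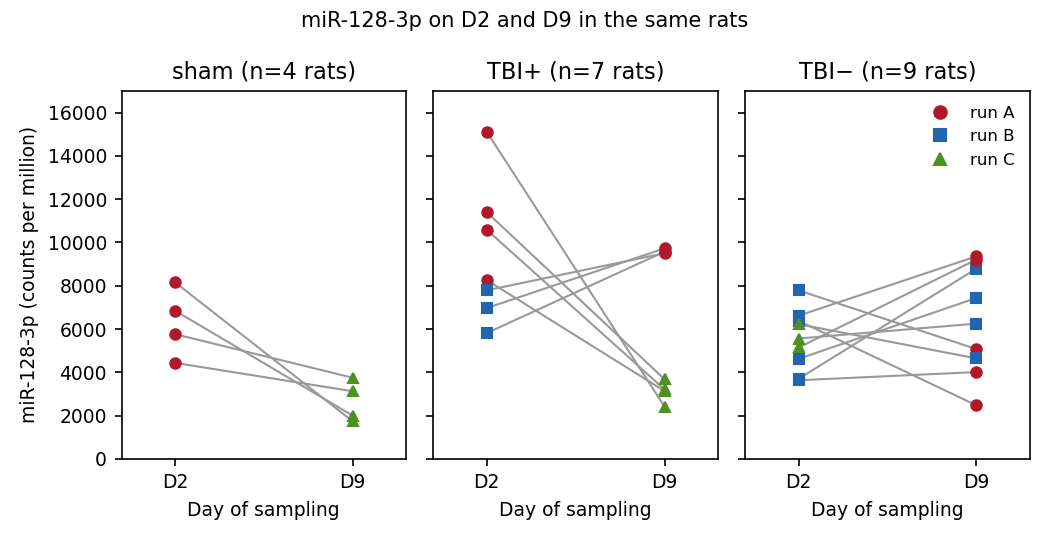
miR-128-3p in CPM (vertical axis) on D2 and D9, with a line for each rat and symbols for the run of library numbers. In TBI+ the 4 rats that went from run A to run C were lower on D9 and the 3 that went from run B to run A were higher.

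An index of red cell content was higher on D9 in all 3 groups, while the sum of red cell miRNAs was nearly level in sham. The log2 ratio of miR-451-5p, abundant in red cells, to miR-23a-3p, used as the index, had a median of −0.51 in sham, −0.08 in TBI+ and −0.49 in TBI− on D2, and of 1.13, 1.42 and 1.05 on D9. The red cell list had 5 of 6 miRNAs in the table, none at 0, with miR-16-5p the most abundant. Its sum was 26087 CPM in sham, 27221 CPM in TBI+ and 28541 CPM in TBI− on D2, and 28444, 45108 and 39890 CPM on D9. In TBI+ 4 of the 5 rose from D2 to D9 by edgeR, in TBI− 3 of 5 and in sham 0 (13.4%, 17.7% and 4.99% of all miRNAs called). With the index as a covariate, miR-128-3p from D2 to D9 was −1.68 (SE 0.54), adjusted p = 0.171, in sham and −1.18 (SE 0.48) in TBI+. The difference between days was larger with the covariate, and the sham call was lost.

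The other marker lists held miRNAs of blood cells in every group. The list of platelet, leukocyte and endothelial miRNAs had 8 of 9 with reads and miR-126a-5p at 0, and its most abundant was miR-150-5p, a lymphocyte miRNA. Its sum was 59113 ± 17253 CPM in sham, 36928 ± 9723 CPM in TBI+ and 36349 ± 11645 CPM in TBI− on D2. On D9 it was 50069 ± 40279, 50657 ± 10732 and 47805 ± 14700 CPM, where sham had a median of 36004 CPM and 1 library at 108077 CPM. None of its members rose and 2 of 8 fell in injured against sham rats on D2 (6.19% of all miRNAs called; median log2 fold change −0.50, against 0.09 over all miRNAs). On D9, 1 of 8, miR-146a-5p, fell in that comparison (3.51% of all miRNAs called), and 0 miRNAs were called without sham rat 2. The list median was −0.27 against 0.30 over all miRNAs. The red cell list had a median of 0.65 there, with 0 of 5 called. From D2 to D9, 2 of 8 rose in TBI+, 3 of 8 rose in TBI− and 1 of 8 fell in sham (13.4%, 17.7% and 4.99% of all miRNAs called). In the change of injured minus sham rats 2 of 8, miR-223-3p and miR-142-5p, were called upward (2.93% of all miRNAs called), with a median of 0.83 against 0.15 over all 581 miRNAs. With the run as a term 0 miRNAs were called in that comparison, so both calls were lost. The number called there was 3 without sham rat 1 and 25 without sham rat 2. Of the liver and gut list, miR-192-5p was at 34958 to 69061 CPM in the 6 groups and miR-122-5p had no read in any library. Of the muscle list, miR-206-3p had 11 reads in all, and miR-1-3p and miR-133a-3p had none. miR-206-3p was called lower in TBI− against sham on D9 (4.81% of all miRNAs called), where the sham median was 0 CPM. The highest sham library, sham rat 2, was at 12.3 CPM, under its floor of 18.5 CPM. Without sham rat 2 that comparison called 0 miRNAs. A row at 0 does not show that a tissue gave no RNA: the other arms of miR-122-5p, miR-133a-3p and miR-126a-5p, looked up after seeing the data, had 14402, 6946 and 93577 reads and were read in all 40 libraries. For miR-1-3p neither arm had a read. Why these rows are at 0 was not tested. In all, 581 of 752 rows had a read. The part of these cells in the miR-128-3p level was not tested.

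Other neural miRNAs were set beside miR-128-3p, with no test of a difference between them. The list had 23 names, of which several were picked by the study from these libraries, so its direction is not independent evidence; 20 were tested on D2 and 3 (miR-9a-3p, miR-338-3p and miR-434-3p) had no read. In injured against sham rats on D2, 10 of 20 rose and 0 fell by edgeR (6.19% of all miRNAs called), with a median log2 fold change of 1.38 against 0.09 over all 565 miRNAs. miR-124-3p, the most neuron-specific of them, had no read in any sham library and reads in all 16 injured rats, and miR-129-5p rose by 2.45 (SE 0.45), adjusted p = 6.3e-04. Both were present at a far lower level than miR-128-3p. The most abundant of the list was rno-miR-138-5p, a regulator of dendritic spines, at 1088 ± 61.9 CPM in sham on D2, and its log2 fold change in injured rats was −0.05 (SE 0.22), adjusted p = 0.930.

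On D9 none of 19 neural miRNAs tested passed the threshold in injured against sham rats, where 3.51% of all miRNAs were called, so that few or none would be called in a list of this size at that share. The list had a median of 0.28 against 0.30 over all 541 miRNAs. From D2 to D9, 10 of 20 fell in TBI+ and 11 of 20 fell in TBI−, where miR-383-5p rose, and 0 of 20 passed in sham, where 13.4%, 17.7% and 4.99% of all 581 miRNAs were called. With the index of red cell content as a covariate, 9 of all miRNAs were called lower in TBI+ and 9 in TBI−. Not all of these list calls were therefore kept. The median log2 fold change of the list was −1.09 in TBI+ and −1.21 in TBI−, against a median of 0.00 over all miRNAs. In the change of injured minus sham rats 1 of 20, miR-129-5p, was called downward and none upward (2.93% of all miRNAs called). The list median there was −1.21 against 0.15 over all miRNAs. With the run as a term 0 miRNAs were called, so the miR-129-5p call was lost. rno-miR-138-5p was among those that fell in TBI+, by a log2 fold change of −0.89 (SE 0.28), adjusted p = 0.0164 (edgeR). Its TBI+ mean went from 1177 to 625 CPM. TBI+ rats 1 to 4 went from run A to run C between these days. Within TBI+ on D9 the log2 difference of miR-138-5p between runs A and C was 0.73 (SE 0.30). For those rats the day and the run cannot be told apart. In TBI− the log2 fold change of miR-138-5p from D2 to D9 was 0.06 (SE 0.25), adjusted p = 0.953. A test of miR-128-3p against the list was not run.

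No other mature strand in the RefSeq table had the same seed as miR-128-3p. With 6 or more seed bases in common there were 3, all in the count table, printed to show the shift of the common stretch.
miR-27a-3p: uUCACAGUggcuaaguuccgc
miR-27b-3p: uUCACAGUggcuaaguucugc
miR-216a-3p: cACAGUGGucucugggauuaug
The first 8 bases of miR-128-3p are found in miR-27a-3p from its base 2 on. miR-27a-3p and miR-27b-3p differ at 1 base, and the ratio of their counts was 1.00 to 1.13 in all 40 libraries, so their counts are uncertain where reads could have been given to both.

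rno-miR-27a-3p was more abundant than miR-128-3p and steadier across the groups on D2. It was at 16168.5 ± 2622 CPM in sham, 15888 ± 1387 CPM in TBI+ and 15592.5 ± 2555 CPM in TBI− on D2, and its log2 fold change in injured rats was 0.08 (SE 0.16), adjusted p = 0.819. On D9 it was at 11332 ± 5761 CPM in sham, and the value was 0.60 (SE 0.29), adjusted p = 0.298 (edgeR). In TBI+ on D9 it did not show the bands of miR-128-3p, with 17103 ± 3182 CPM in run A and 17419 ± 2276 CPM in run C. miR-216a-3p, an exocrine pancreas miRNA, had 41 reads in all, each of them on D2. It was the only one of the 3 past the threshold in any of the 12 comparisons. That was D9 against D2 in TBI−, where 17.7% of all 581 miRNAs were called, so the call does not set it apart.

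The miRNAs most like miR-128-3p were ranked within each day. On D2, over 20 libraries and 185 other miRNAs with at least 10 reads in each, the highest Spearman rho was with miR-322-5p (0.52), followed by miR-345-3p and miR-138-5p (0.51 each), miR-18a-3p (0.47) and let-7d-3p (0.45). On D9 the same 5 had a rho of 0.54, 0.35, −0.13, 0.58 and 0.55. The lowest on D2 were miR-181a-2-3p (−0.73), miR-205 (−0.67) and miR-30d-3p (−0.52), which had 0.30, −0.08 and −0.43 on D9. On D9, over 129 other miRNAs, the highest were miR-15b-5p (0.81), miR-223-3p (0.80), let-7a-5p (0.80), let-7f-5p (0.78) and miR-301a-3p (0.73, equal with let-7g-5p). On D2 the first 5 had 0.28, 0.34, 0.38, 0.44 and 0.25. The lowest on D9 were miR-22-3p (−0.85), miR-375-3p (−0.84) and miR-351-5p (−0.82), which had −0.26, 0.32 and −0.12 on D2. These are descriptions with no test, and the libraries share their groups, runs and depth.

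The miRNA most opposed to miR-128-3p on D9, rno-miR-22-3p, took a large share of every library. It had 195914 ± 81258 CPM in sham, 110741 ± 31690 CPM in TBI+ and 115312 ± 43499 CPM in TBI− on D9. Within TBI+ on D9 it was at 83333 ± 13661 CPM in run A and 131296 ± 23864 CPM in run C, opposite in direction to miR-128-3p. On D2 its rho with miR-128-3p was −0.26. miR-223-3p, a myeloid miRNA, had a rho of 0.34 with miR-128-3p on D2. Whether a share taken by miR-22-3p bears on the level of miR-128-3p was not tested beyond the scaling alternatives.

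rno-miR-28-3p, the reference miRNA of the study, was steadier than miR-128-3p over the groups. The study chose it for its stability in these libraries, so this is partly built in. miR-28-3p ranged between group means of 882 ± 221 CPM in sham on D9 and 1105 ± 16.0 CPM in sham on D2. Scaled to it, the D9 log2 fold change of miR-128-3p in injured against sham rats was 1.07 (SE 0.49), adjusted p = 0.281 by edgeR. The difference between runs A and C in TBI+ on D9 was 2.12 (SE 0.27) on that scale.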

How the data were processed

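The deposited values were raw read counts per miRNA and library. Per the study's methods and the submitters' processing notes, the authors checked reads with FastQC 11.8, trimmed them with Trimmomatic 0.36, merged both flow cells, aligned to Rno6 with Bowtie2 and counted miRBase annotations with featureCounts of Subread. Sequences come from RefSeq, build GRCr8, and no coordinates of the 2 builds were mixed.

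Levels in CPM came from dividing by the sum of all counts. Each within-day comparison used edgeR 4.0.16 (quasi-likelihood test, TMM, Benjamini-Hochberg over all miRNAs with a read that day) in R 4.3.3 on all 20 libraries of the day, 2-sided, threshold 0.05. Each comparison of days used 40 libraries with the rat as a block. That pairing comes from group and animal number in the titles. The deviations of a rat's 2 libraries correlated by −0.38 to 0.64 over 130 miRNAs, with a median of −0.03. The value was over 0.1 in 8 of 20 rats, so the counts do not show the pairing by themselves. SE was the log2 fold change divided by the root of F. Fits were tested on simulated data. P-values rest on rats, 1 library each per day. Floors of 3 reads cover counting error only. DESeq2 1.42.0, other scalings, filters, thinning, covariates, within-run fits, libraries left out and exact permutation tests were alternatives.

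Named were the rows of the rule, miRNAs with 6 or more common seed bases, a neural list and marker lists with their most abundant gene. Not every list member past the threshold was named. Also named were the 5 highest and 3 lowest Spearman rho per day (TMM-scaled CPM), and miR-28-3p, miR-451-5p and miR-23a-3p. let-7g-5p was named after its values were seen. The members and lists were chosen with earlier results of these data known. The neural list includes miRNAs the study picked from these libraries.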

Additional observations from a re-analysis of the deposited data

Results flagged for a closer look

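Of 17 groups of 4 to 10 libraries checked, 4 held a library whose gap to the next was large against the range of its group, all of them in the 5p arms. The rule flags about 1 in 20 groups by chance for continuous values, which these low counts are not: where the other libraries hold no read, 1 library with reads is set apart by construction. miR-128-2-5p was at 2.39 CPM in TBI+ rat 1 on D2, from 4 reads, with no read in the other 6 rats, and at 3.84 CPM in TBI+ rat 1 on D9, from 5 reads. It was at 5.81 CPM in TBI− rat 9 on D9, from 9 reads. miR-128-1-5p was at 12.0 CPM in TBI− rat 2 on D9, from 4 reads in a library of 332161 counts. No library stood out in this way for miR-128-3p in any of the 6 groups. The cause of these values was not tested.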

How the results depend on the processing

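Values are log2 fold changes of miR-128-3p. Several results moved, and the run of library numbers as a term, chosen after seeing the data, moved most of them. Comparisons with D2 libraries of injured rats are descriptions, since miR-128-3p was chosen by those values. On D2, TBI+ against sham was 0.72 with DESeq2, 0.88 with the run as a term and 0.87 within run A. Injured against sham had the same 0.88 and 0.87, which rest on the 4 TBI+ rats of run A. TBI− against sham changed direction scaled to miR-28-3p (0.014), with a replicate block (0.10) and with the run as a term (0.53). The replicate numbers of different groups name different rats, whose deviations correlated by −0.59 to 0.55, so the block is not a pairing.

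On D9, injured against sham passed with DESeq2 (1.18) and in 7 of 20 fits with 1 rat left out (adjusted p down to 0.0231). TBI− against sham passed with DESeq2 (1.22) and in 3 of 13 such fits, and was −0.45 with the run as a term. Exact permutation tests gave 1.12 (p = 0.0128) for injured, 1.22 (p = 0.00979) for TBI− and 0.99 (p = 0.0576) for TBI+ rats. These p are not adjusted over miRNAs, and the unadjusted edgeR p were lower, 0.00194, 0.00261 and 0.00384. With a replicate block the values were 0.65, 0.72 and 0.55. TBI+ against TBI− changed direction scaled to miR-28-3p (0.14), with the run as a term (0.77) and within run A (0.89).

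From D2 to D9, the sham call was lost with DESeq2 (−1.02), RLE (−1.02), miR-28-3p scaling (−0.92), filterByExpr (−1.20), the hemolysis index (−1.68) and the run (−0.024). TBI+ was −0.85 with DESeq2, −0.76 with miR-28-3p scaling, −0.88 with filterByExpr, −0.57 with no replicate block, −1.18 with the hemolysis index and −0.28 with the run. TBI− was −0.11 thinned, −0.29 with the hemolysis index, −0.43 with the run and 0.80 in rats with both libraries in 1 run. The difference in change was −0.34 with the run.

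With 1 rat left out at a time, the D2 values were 0.13 to 0.46 for injured, 0.49 to 0.82 for TBI+ and −0.24 to 0.090 for TBI− against sham. The D9 values were 1.15 to 1.43, 1.06 to 1.45 and 1.16 to 1.44, and −0.28 to 0.11 for TBI+ against TBI−. The D9 change was −1.50 to −0.98 in sham, −1.09 to −0.50 in TBI+ and −0.0018 to 0.26 in TBI−, and the difference in change was 0.70 to 1.26.

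The number of miRNAs called moved too: over the alternatives it was 0 to 29 for injured, 0 to 16 for TBI+ and 0 to 32 for TBI− against sham on D9, and 0 to 35 for the sham change (29 in edgeR, 7 without sham rat 3).

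Gene copies were not merged, since counts were odd and even. TBI− and sham share no run, so no fit within a run was made. Their values with the run as a term link them only through TBI+ libraries. The near-identical pair left out was an alternative chosen after seeing the data. For all values above, the cause was not tested. Depth limits the 5p arms, with 3 or fewer reads in many libraries.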
